A study of Rattus norvegicus with 7 samples.

Results

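Some genes of the strained spinal cord cultures had a signal at 6 h that stood above, or below, those of the neighbouring arrays at 2 h and 12 h. The array at 6 h was set against both neighbours for 31042 rat probe sets, after 57 control probe sets had been left out of the 31099 on the array. A probe set is a group of oligonucleotides designed to report a transcript or a group of related ones, and its signal is a linear intensity. Probe sets with a mean signal under 100 over the 3 arrays were left out, which kept 17408. Of these, 11085 had a 6 h signal on the same side of both neighbours, 5085 above both (29.2%) and 6000 below both (34.5%), while 6323 (36.3%) lay between them. Most of these differences were small. A probe set was called peaking at 6 h where its signal was at least 1.5 times both neighbours and dipping where both neighbours were at least 1.5 times the 6 h signal.

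The cells were primary cultures from the spinal cord of Sprague-Dawley rat embryos of day 15, freed of dorsal root ganglia and meninges. They were grown on flexible, collagen-coated plates and stretched in cycles of 10% at 0.5 Hz. At the start of loading (0 h) and after 2, 6, 12, 24, 48 or 72 h the RNA of 5 animals was combined and hybridised to 1 array. Each time thus has 1 array and no replicate, so no test was possible, no p-value is given and calls rest on size alone. No unloaded culture of the later times was analysed here, so strain, time in culture and handling on the day cannot be told apart.

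Stimulated cells switch on a first set of genes without new protein synthesis, the immediate early genes, among them transcription factors such as the Fos, Egr and Nr4a families. Their transcripts are short-lived and are followed by inhibitors of the same signals, such as the dual-specificity phosphatases and regulators of G protein signalling. Astrocytes and their precursors, the radial glia, are the support cells of the spinal cord and express the water channel Aqp4, the lipid carrier Fabp7 and the intermediate filament Gfap.

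The median signals of all probe sets on the 3 arrays were 146, 145 and 147 at 2, 6 and 12 h, and the control probe sets at both ends of the Gapdh transcript gave 3′ to 5′ ratios of 1.10, 1.10 and 1.10. The corresponding ratios for Actb were 1.53, 1.83 and 1.95, and the part of this difference in the results was not tested. Neuronal markers were present, but their summed signal over 30 genes went from 37837 at 0 h through 23332 and 19474 at 2 and 6 h to 13642 at 12 h. The motor neuron genes Chat and Isl1 and the neuronal genes Gad2, Nefh and Syn2 did not pass the filter. Markers of microglia, fibroblasts and skeletal muscle were also present, and none of the 9 erythroid markers on the array passed the filter.

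The 6 h array had 156 peaking and 287 dipping probe sets, which were 0.896% and 1.65% of those past the filter. Under the stricter threshold of the study's methods, a 2-fold ratio with a difference of at least 200 signal units, 14 probe sets peaked (0.0804%) and 8 dipped (0.046%). The same rule was applied to each other array with an array on both sides. At 2 h, 52 probe sets peaked (0.296%) and 155 dipped (0.882%), and at 12 h, 114 peaked (0.651%) and 235 dipped (1.34%). At 24 h, 166 peaked (0.944%) and 103 dipped (0.586%), and at 48 h, 98 peaked (0.553%) and 153 dipped (0.863%). The 1.5-fold counts at 6 h were thus of the same order as those elsewhere. More probe sets peaked at 24 h than at 6 h, while the 287 dips at 6 h were the most of the 5 arrays. Under the stricter threshold the peaks numbered 0 at 2 h (0%), 4 at 12 h (0.0229%), 3 at 24 h (0.0171%) and 0 at 48 h (0%). The dips under it numbered 2 at 2 h (0.0114%), 2 at 12 h (0.0114%), 3 at 24 h (0.0171%) and 1 at 48 h (0.00564%). The 14 strict peaks and 8 strict dips at 6 h were the highest counts of the 5 arrays. The intervals between arrays lengthen from 2 h to 24 h along the course, so the arrays were not set against neighbours equally near in time.

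**Figure D1:**
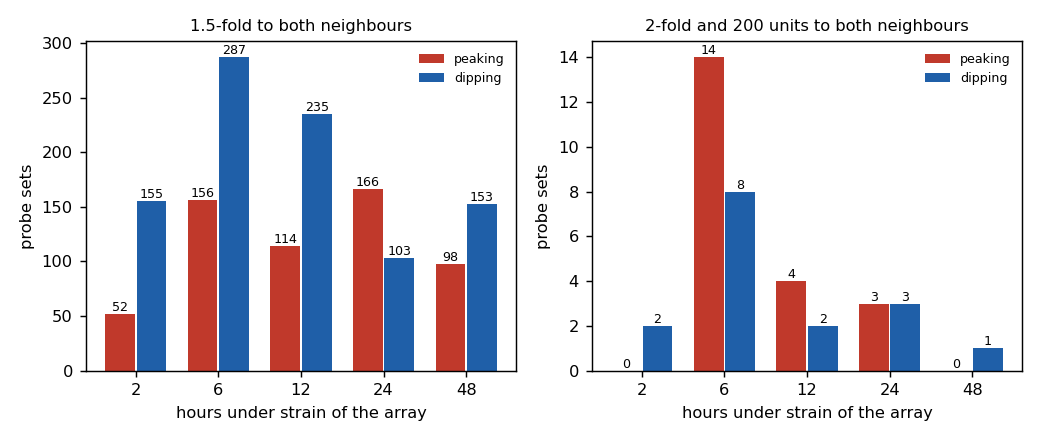
Number of probe sets (vertical axis) that peaked or dipped at each array with an array on both sides (horizontal axis, hours under strain), at 1.5-fold to both neighbours (left) and at 2-fold with 200 signal units (right). Each time is 1 array. The 6 h array has 14 strict peaks and 8 strict dips, against at most 4 peaks and 3 dips at the other times.

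Members and lists were chosen with earlier results of these data known. The arrays at 0, 24, 48 and 72 h did not enter the rule. The rule itself, however, sets the order of the 6 h signal against 2 of the other 6, so the members are given beside all probe sets on the same side of both neighbours, whatever their size. The 6 h signal was the highest of all 7 arrays in 116 of the 156 peaking probe sets (74.4%), against 2588 of the 5085 above both neighbours (50.9%). It was the lowest of all 7 in 232 of the 287 dipping probe sets (80.8%), against 3000 of the 6000 below both (50%). Of the peaking probe sets, 91 (58.3%) were also at least 1.5 times their 0 h signal and 102 (65.4%) at least 1.5 times their 24 h signal, where 15.3% and 10.9% of those above both neighbours were. Of the dipping ones, 218 (76.0%) had a 0 h signal and 180 (62.7%) a 24 h signal at least 1.5 times that at 6 h, where 21.5% and 12.8% of those below both neighbours had. These shares are a description, since the 6 h array enters all of them and the rule. The wider sets hold mostly smaller differences, so they are not matched to the members in size. Many members were dim: 59 peaks had a neighbour under 100 and 100 dips had a 6 h signal under 100. The median peak went from 131 as the mean of its neighbours to 247 at 6 h, and the median dip from 276 to 143, where the median of all probe sets past the filter was 510 and 495.

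**Figure D2:**
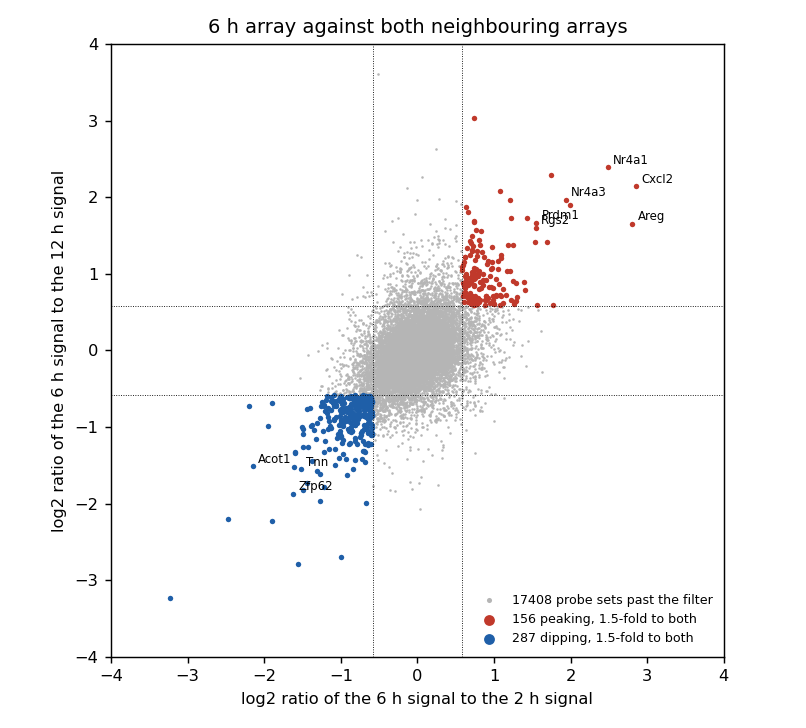
Each point is a probe set, with the log2 ratio of its 6 h signal to its 2 h signal on the horizontal axis and to its 12 h signal on the vertical axis. Dotted lines mark 1.5-fold, the 156 peaks lie at the upper right and the 287 dips at the lower left, and genes past the strict threshold by the widest margin are named.

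Of the 156 peaks, 121 had 1 gene symbol, for 113 genes. The 14 strict peaks came from 12 genes. They were 4 regulators of transcription (Nr4a1, Nr4a3, Crem and Prdm1), 3 ligands (Cxcl2, Areg and Tnfsf9), 3 regulators of signalling (Rgs2, Dusp5 and Camkk1), the matrix enzyme Has2 and the trafficking gene Rab7b.

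Nr4a1, an orphan nuclear receptor and immediate early gene, had signals of 259.8, 256, 1434, 274, 298, 466 and 816 at the 7 times from 0 h to 72 h. The 6 h value was 5.59 times its 2 h signal and 5.23 times its 12 h signal, the widest margin of all strict peaks by the smaller of its 2 ratios, and stood above every other array, with a second and lower rise towards 72 h. Fewer cells of a type and less RNA per cell cannot be told apart in such pooled cultures, here or below. Its relative Nr4a3 followed the same course, with 122, 189, 722, 185, 143, 234 and 354 in the same order of times. A second Nr4a3 probe set also peaked, from 166 at 2 h to 479 at 6 h and 179.5 at 12 h. Nr4a2, the third member of the family, peaked by the 1.5-fold rule only, with 213, 238, 499.7, 303, 378, 758 and 917, and its 48 h and 72 h signals stood above that at 6 h. A dimmer Nr4a2 probe set also peaked, with 87.5, 235 and 71.2 at 2, 6 and 12 h. These were ratios of 2.69 and 3.30, but the differences were under 200 units. All 3 members of the family thus had a local maximum at 6 h.

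Crem, which encodes activators and repressors that bind the cyclic AMP response element, had signals of 171, 289, 686, 265, 185, 455 and 389. The 6 h signal was 2.37 times its 2 h signal and 2.59 times its 12 h signal. Of the 5 Crem probe sets past the filter 3 peaked, and a brighter one read 839.9, 995, 1798, 899, 987, 1875 and 1759, where the 48 h signal passed that at 6 h. Prdm1, a transcriptional repressor of lymphocyte and germ cell development, had 196, 175, 511, 161, 143, 201 and 160.1 and lay between 143 and 201 at the 6 other times. Id2, an inhibitor of basic helix-loop-helix factors, was bright throughout, with 5020.0, 4569, 7919, 3955, 3573, 3755 and 4429, and reached 1.86 times the mean of its neighbours. Relb, a subunit of NF-kB, had 235, 340.4, 546, 229.6, 266, 268 and 311 and was highest at 6 h. Sik1, a kinase that restrains cyclic AMP signalling through its cofactors, had 212, 139, 364, 195, 143, 208 and 144. Its second and dimmer probe set did not peak, with 117, 94.9 and 103 at 2, 6 and 12 h, below both neighbours at 6 h.

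Cxcl2, a chemokine that draws neutrophils, had signals of 57.5, 55.3, 401, 90.8, 136, 314 and 428. Its 6 h value was 7.25 times its 2 h signal and 4.42 times its 12 h signal, but both neighbours and the 0 h array were under 100, and the 72 h signal passed that at 6 h. Areg, amphiregulin, a ligand of the EGF receptor, had 59.8, 145, 1013, 322, 329, 550.2 and 1035. The 6 h and 72 h signals of Areg were close to each other, so its early peak was a first maximum followed by a trough at 12 and 24 h. Il6, the inflammatory cytokine interleukin 6, had 42.3, 71, 237, 48.5, 109, 90.1 and 253 and peaked by the 1.5-fold rule with both neighbours under 100. Tnfsf9, the ligand of the costimulatory receptor 4-1BB, had 585, 447, 1008, 494, 521, 562 and 381 and was highest at 6 h. Ccl4, a chemokine of macrophages, had 2264, 1431, 2516, 1351, 1748, 961 and 534, with a 0 h signal almost as high as that at 6 h. For Cxcl2, Areg and Il6 the signal came back to the 6 h level by 72 h, while Tnfsf9 and Ccl4 ended below their start.

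Ptgs2, the inducible cyclooxygenase of prostaglandin synthesis, passed the 1.5-fold rule with 144, 224, 551, 339, 503, 1808 and 3116. Its 6 h maximum was only local, since the 48 h and 72 h signals were several times higher.

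Rgs2, which shortens signalling by G protein-coupled receptors, peaked in both of its probe sets. They read 693, 697, 2034, 669.6, 889, 839 and 696 and 1793, 1625, 5232, 1968, 2128, 2003 and 1929.6. At 6 h they stood at 2.98 and 2.91 times the mean of the neighbours, and in both the other 6 arrays lay close together. Dusp5, a nuclear phosphatase that inactivates ERK, had 384, 425, 907, 381, 529, 406 and 309, and Dusp2, another phosphatase of this family, had 231, 374, 709, 315, 221, 458 and 417. Camkk1, a kinase that activates calmodulin-dependent kinases, had 325, 278, 578, 258, 339.8, 312 and 289.6, and 6 h was its single high array. Pde4b, which degrades cyclic AMP, is given here outside the rule by which genes were named. It peaked in 2 probe sets, of which the brighter read 628, 447, 827, 549, 589.8, 1129.8 and 1052 and was higher again at 48 h.

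Has2, which makes the matrix polysaccharide hyaluronan, had 197, 230.3, 539, 162, 126, 182 and 125. The 6 h signal was 2.34 times its 2 h signal and 3.33 times its 12 h signal, and it was lower at 72 h than at 0 h. Rab7b, a small GTPase of late endosomes, had 1448, 1707, 3635, 1576, 1848, 892 and 654 in the probe set that peaked. Its other probe set did not, with 1466, 1959, 1653, 1339, 1441, 527 and 407, so the peak of Rab7b rests on 1 of 2 probe sets.

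**Figure D3:**
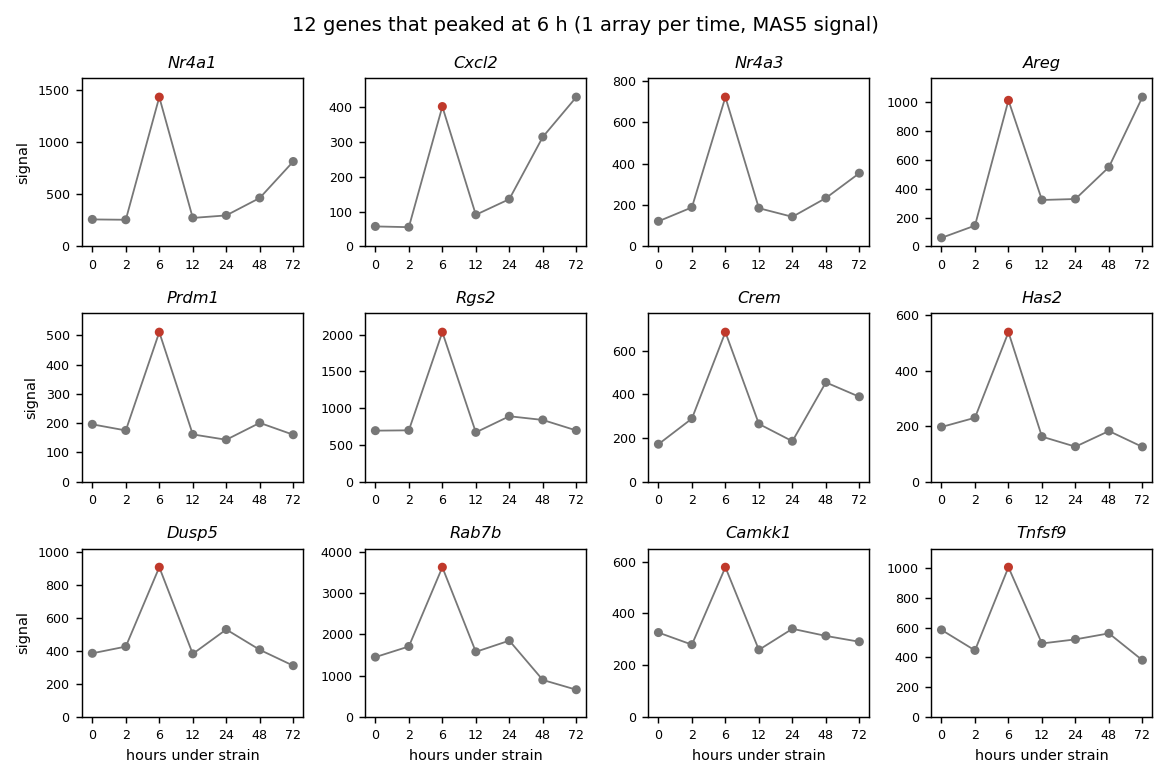
Signal (vertical axis, linear and from 0) against hours under strain (horizontal axis, arrays evenly spaced and not to scale) for the 12 genes past the strict threshold, 1 array per point and the 6 h point in red. Nr4a1, Cxcl2 and Areg rise again towards 72 h, while Prdm1, Rgs2, Has2 and Camkk1 have a single high array.

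The 45 peaks that also differed from both neighbours by at least 200 units differed in their 72 h level. At that time 30 of them were within 2-fold of their 0 h signal, 8 were at 2 times it or more and 7 at 0.5 times or less, where 5.31% and 9.18% of all probe sets past the filter were past these bounds. Over all 156 peaks the median ratio to 0 h was 0.75 at 6 h on the log2 scale, 0.05 at 24 h and -0.18 at 72 h. Over all probe sets past the filter it was -0.03, -0.01 and -0.02. Of the 156 peaks, 19 had a 72 h signal at or above that at 6 h, where 8735 of all 17408 did. The rule selects a high 6 h signal, which lowers this count. Other genes of the 45 that were highest at 6 h, named after their values were seen, included the complement component C3 with 358, 875 and 476 at 2, 6 and 12 h, and the interleukin 18 inhibitor Il18bp with 2016, 3369 and 1772. Ebi3, a subunit of the interleukin 27 and 35 cytokines, read 4499, 7479 and 4845, the stress-induced growth inhibitor Gadd45b 730.3, 1249 and 783, and Nt5e, an enzyme that makes extracellular adenosine, 1269, 1994 and 789.

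The RefSeq promoter table (build GRCr8) held 8589 of the 10287 measured genes, and 89 of the 113 peaking genes. The stretches shown are the 200 bases before the gene start for 5 of the peaking genes whose promoter holds the sequence element bound by CREB and CREM (CRE), the kappaB motif or the CArG box of serum response factor. They are shown as the letters behind the motif counts that follow, and capitals mark the matches. No rule set the choice of these 5, and Vps37b, another peaking gene, has a CRE at -76. By the letters searched, none of these elements was found in the window at the gene start of the strict peaks Crem, Prdm1, Rgs2, Rab7b and Camkk1. The CRE was searched only as the full TGACGTCA, so shorter or variant sites were not counted. Windows at other starts of the same gene were not searched. Absence of a match thus does not show that these genes lack such elements.
Areg (chr14:17265642-17265841, minus strand): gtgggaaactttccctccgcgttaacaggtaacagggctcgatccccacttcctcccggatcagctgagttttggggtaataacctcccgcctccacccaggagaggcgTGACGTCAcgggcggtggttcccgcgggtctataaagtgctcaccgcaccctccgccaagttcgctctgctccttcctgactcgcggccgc
Il6 (chr4:5894576-5894775, minus strand): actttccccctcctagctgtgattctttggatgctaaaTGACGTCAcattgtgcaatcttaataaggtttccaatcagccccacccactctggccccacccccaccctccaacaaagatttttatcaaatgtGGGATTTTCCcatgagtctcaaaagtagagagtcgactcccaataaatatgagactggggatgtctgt
Cxcl2 (chr14:17467256-17467455, minus strand): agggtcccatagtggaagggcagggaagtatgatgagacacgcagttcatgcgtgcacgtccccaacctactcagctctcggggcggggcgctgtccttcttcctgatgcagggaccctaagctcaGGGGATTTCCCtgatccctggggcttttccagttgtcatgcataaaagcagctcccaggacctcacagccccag
Nr4a1 (chr7:134259938-134260137, plus strand): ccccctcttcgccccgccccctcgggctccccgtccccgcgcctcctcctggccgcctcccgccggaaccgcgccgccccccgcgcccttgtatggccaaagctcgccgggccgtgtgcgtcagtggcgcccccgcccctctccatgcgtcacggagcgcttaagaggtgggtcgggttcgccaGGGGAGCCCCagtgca
Dusp5 (chr1:262543574-262543773, plus strand): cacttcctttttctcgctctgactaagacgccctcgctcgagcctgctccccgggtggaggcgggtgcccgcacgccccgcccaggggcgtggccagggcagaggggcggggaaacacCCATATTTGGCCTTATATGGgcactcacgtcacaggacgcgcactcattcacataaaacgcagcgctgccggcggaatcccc
Counted from the gene start, the CRE began at -91 in Areg and at -162 in Il6, the kappaB match at -68 in Il6, at -74 and, overlapping it, -73 in Cxcl2 and at -16 in Nr4a1, and the CArG matches at -82 and -72 in Dusp5. Among the peaking genes whose promoters were not in the table were Ccl4, Ebi3, Fcrl2, Has2, Ndrg1, Nr4a3, Relb and Tnfsf9.

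Over all peaking genes these motifs were about as frequent as elsewhere. The CRE, TGACGTCA, was found on either strand in 4 of 89 promoters of peaking genes (4.49%), in 3 of 152 of dipping genes (1.97%) and in 3.38% of those of all measured genes. The kappaB motif was in 8.99%, 8.55% and 9.92%, and the CArG box in 1.12%, 0.658% and 1.33%. The AP-1 site, TGANTCA, was in 4.49%, 5.26% and 4.75%, and the E-box, CACGTG, in 11.2%, 7.24% and 9.81%. The antioxidant element core, TGACNNNGC, was in 14.6%, 11.8% and 14.8%, the heat shock element core, GAANNTTC, in 6.74%, 3.95% and 5.48%, and the C/EBP palindrome, TTGCGCAA, in 0%, 0% and 0.256%. Matches of different motifs were counted separately and may overlap. A match is a run of letters in a window of 300 bases and not a measured binding site.

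Genes of the signalling lists were described by their counts beside those of all genes. The lists were chosen with earlier results of these data known, and their values come from the same arrays as the rule. The counts are thus a description only. Over 10287 genes, each by its brightest probe set, the median log2 ratio of the 6 h signal to the mean of its neighbours was -0.02. Of them 30.6% lay above both neighbours, 33.8% below both, 0.82% peaked and 1.35% dipped. Of the 27 immediate early genes past the filter 18 lay above both neighbours and 2 below, the median was 0.26, and 6 peaked while none dipped. Arc, which remodels synapses, peaked from a low level (86.2, 171 and 104 at 2, 6 and 12 h). Junb, a subunit of AP-1, read 737, 1603 and 1118 and missed the rule at 12 h only. Fos and Egr1, the best-known members of the group, did not peak, with 969.6, 1107 and 846 for Fos and 2959, 4509 and 3242 for Egr1. Jun, with 3051, 3205 and 3520.5, and Myc, with 413, 351 and 402, were not above both neighbours. Within this list the rule was thus met by the Nr4a family, Crem, Sik1 and Arc.

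Of the 20 chemokines and cytokines past the filter, 12 lay above both neighbours and 1 below, with a median of 0.45, the highest of the lists with genes past the filter. The 3 that peaked by their brightest probe set were Cxcl2, Il6 and Ccl4, while in a dimmer one the interleukin Il1a also peaked and the growth factor Csf1 dipped. Ccl9, a macrophage chemokine, read 1419, 1673 and 271 and Il18, interleukin 18, 1069, 1474 and 909.8, so both were highest at 6 h but nearer to one neighbour. The alarm chemokine Ccl2 was level, with 12157, 11543 and 12527. Of 15 NF-kB targets and feedback genes 11 lay above both neighbours, with a median of 0.25, but Relb alone peaked by its brightest probe set, and Tnfaip2, a TNF-induced gene, did so in a dimmer one. The inhibitor Nfkbia read 1062, 1393 and 1276 and the mitochondrial dismutase Sod2 3557, 4421 and 3244.

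Markers of microglia and macrophages moved with these lists. Of 18 markers past the filter 13 lay above both neighbours and 1 below, with a median of 0.28, and none peaked. The summed signal over all 20 markers was 155317 at 6 h, the highest of the 7 arrays, against 126138 at 2 h and 127836 at 12 h. Defining markers were far from 0: Aif1 read 4269.6, 4150.5 and 3528, Cd68 13609.7, 16395 and 14624 and the protease Ctss 11224, 18892 and 16651. The complement genes C1qa, with 5329.9, 6318 and 2147, and C1qc, with 2762, 3531 and 1077, had the largest drops of the list from 6 to 12 h. The part of these cells in the cytokine values was not tested. After quantile normalization the microglial median was 0.13.

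Of 14 MAPK feedback genes 6 lay above both neighbours, the median was 0.10, and Dusp5 and Dusp2 peaked, with the ERK-induced factor Etv5 in a dimmer probe set. Dusp6, the cytoplasmic ERK phosphatase, read 2239.6, 2463 and 2069.6 and Dusp1 702, 1242 and 1376, the latter still higher at 12 h. Of the 8 EGF family ligands and receptors Areg alone peaked. The ligand Hbegf read 110.1, 149 and 105 and the receptor Egfr 296, 164 and 205, and the median of this list was -0.20. Of 22 glycolysis and hypoxia genes 16 lay above both neighbours and 2 below, with a median of 0.17. The hypoxia-induced peptide Adm read 281, 573 and 457 and Vegfa, the vascular growth factor, 526, 933 and 775, and none of the brightest probe sets of the list peaked. Ndrg1, a hypoxia-induced gene of this list, peaked in another probe set, with 1586, 2561 and 1638.

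**Figure D4:**
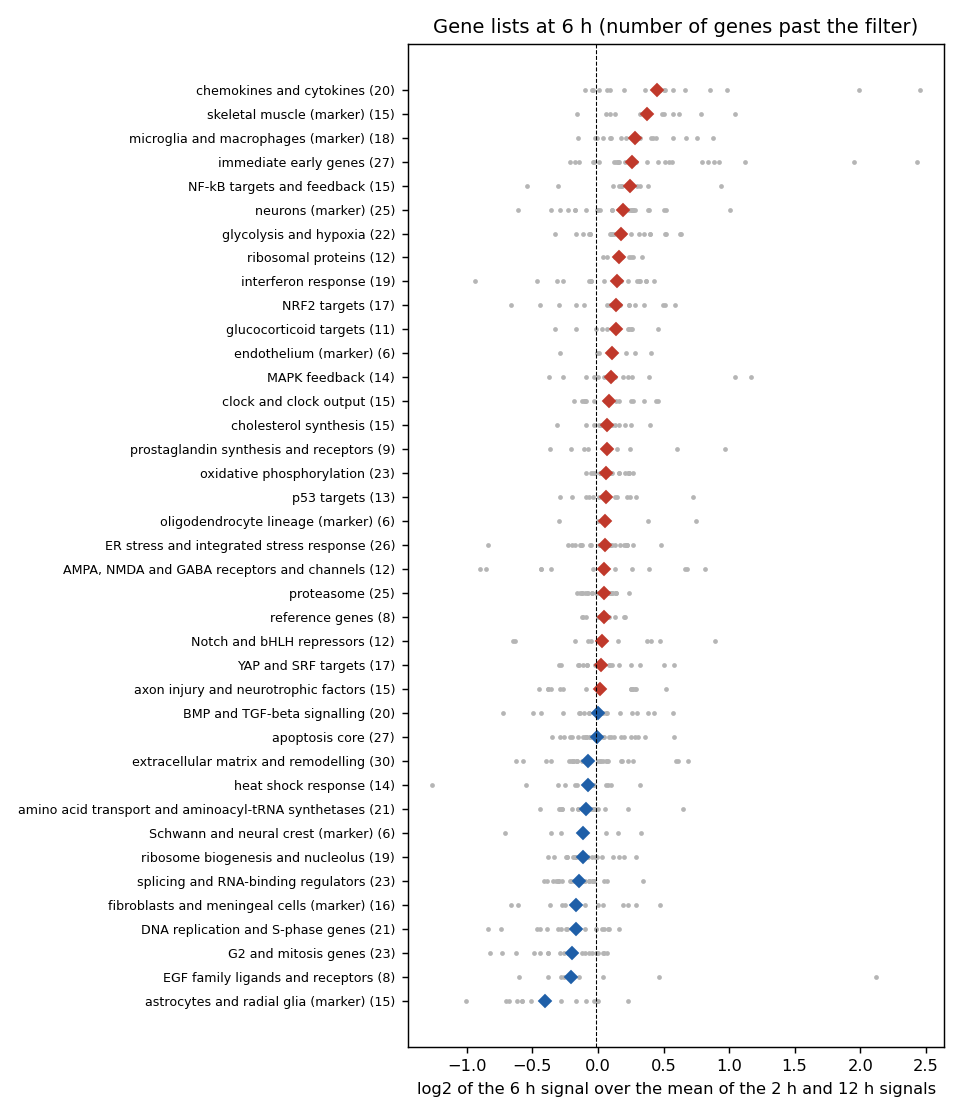
Log2 of the 6 h signal over the mean of the 2 h and 12 h signals (horizontal axis) for the genes of each list past the filter (grey points, 1 brightest probe set per gene) and their median (diamonds, red above 0 and blue below). The dashed line is the median of all genes, -0.02; chemokines and cytokines have the highest median, 0.45, and astrocyte and radial glial markers the lowest, -0.40.

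Of the 287 dips, 209 had 1 symbol, for 198 genes. Genes of astrocytes and radial glia were among the brighter ones. Of 15 such markers past the filter 10 lay below both neighbours and 1 above, and their median of -0.40 was the lowest of the lists. The 2 that dipped were Aqp4 and Fabp7, beside 1.35% of all genes.

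Aqp4, the water channel of astrocyte end feet, dipped in 2 of its 3 probe sets. The brighter read 6218, 6769.9, 3174, 5972, 7682, 8338 and 7606 at the 7 times and the strict dip 576, 661, 286, 650.4, 944, 816 and 873. In both, 6 h was the lowest array and the signals from 24 h on stood above the start. The third and dimmest probe set read 142, 113 and 155 at 2, 6 and 12 h and was lowest at 6 h as well. Fabp7, the fatty acid carrier of radial glia, had 13072, 13403, 8209.7, 12829, 15345, 10460.3 and 10806, and the 6 h signal was 62.6% of the mean of its neighbours. Gfap, the filament of astrocytes, read 9169, 6288 and 9661, the calcium-binding protein S100b 2695, 1703 and 2545 and the bicarbonate transporter Slc4a4 1528, 858 and 1264, each below both neighbours but missing the rule at 1 of them. The glutamate transporter Slc1a3 read 2251, 1803 and 2899.7 and the gap junction protein Gja1 15546, 13047 and 16250.4. Glutamine synthetase, Glul, went the other way with 9264, 10819 and 9183, and the filament gene Vim was level at 21968, 23525 and 25032.

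The summed signal of the 16 astrocyte and radial glial markers on the array was 73727 at 6 h, the lowest of the 7 arrays, against 87748 at 2 h and 89918 at 12 h. The part of the number of these cells in the dips was not tested.

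Of the 8 strict dips Rfx4, a transcription factor of the neural tube and its glia, had 1135, 1336, 612, 1232, 1651, 1743 and 1576. All later arrays stood above its 2 h signal except that at 12 h. Acot1, a cytosolic thioesterase of fatty acyl-CoA, had 732, 903, 204, 582, 995, 1037 and 1120.1, and its 2 h signal was 4.43 times and its 12 h signal 2.86 times that at 6 h. Zfp62, a zinc finger protein, had 271, 299, 96.8, 355, 359.7, 333 and 304 and was under 100 at 6 h only. Ildr2, a receptor of the immunoglobulin family, had 626, 590.3, 254, 639.8, 537, 491 and 666, and 2 other probe sets of it also dipped, with 351, 216 and 425 and 279, 50 and 230.4 at 2, 6 and 12 h. Fam180a, a gene of little-known function, had 472, 471, 224, 547, 531, 1097 and 1284 and ended well above its start.

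Both remaining strict dips were less distinct when all arrays are read. Tnn, the matrix protein tenascin N, had 265, 428, 149, 436, 179, 224 and 772, so 24 and 48 h were low too. RT1-T24-4, a class I histocompatibility gene, had 648, 1278, 605, 1708, 791, 705 and 689. Its 6 h signal was close to those at 0, 48 and 72 h, and 2 h and 12 h were the high arrays. Its probe set is of the kind that may cross-hybridise within a gene family, so its identity is uncertain.

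Among the 1.5-fold dips that also differed from both neighbours by at least 200 units, the next 4 by ratio were Mlc1, Gpm6b, Calb1 and Cdo1. Mlc1, an astrocyte membrane protein, had 1154, 1226, 613, 1327, 1195, 725 and 498 and was lower than at 6 h at 72 h only. Gpm6b, a membrane glycoprotein of neurons and glia, had 1529, 1645, 826, 1579.9, 1642, 1568 and 1569, with the other 6 arrays nearly level. Calb1, a calcium buffer, had 625, 982, 495, 933, 1051, 1364 and 1209.8. Cdo1, cysteine dioxygenase, had 1614, 1582, 789.9, 1479, 1788, 1400.3 and 1488. For Gpm6b and Cdo1 no other array came near the 6 h signal, whereas the 0 h signal of Calb1 was within 1.5-fold of it.

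**Figure D5:**
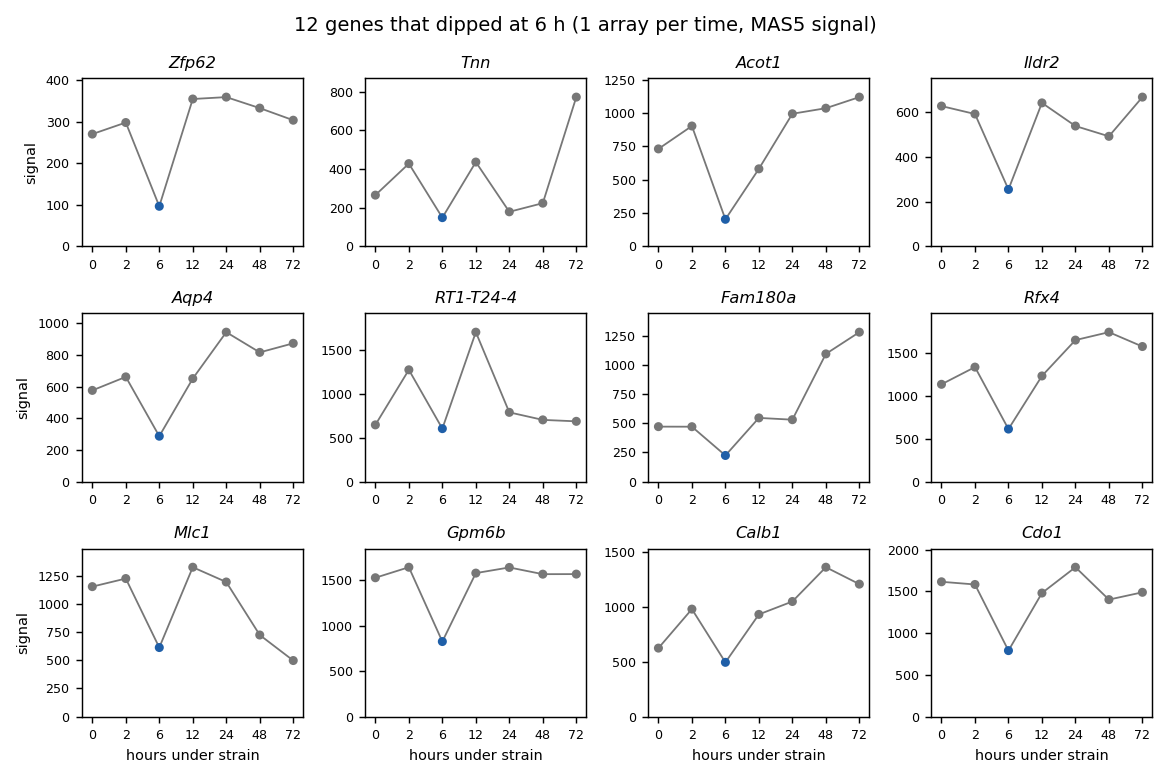
Signal (vertical axis, linear and from 0) against hours under strain (horizontal axis, arrays evenly spaced and not to scale) for 8 strict dips and 4 further genes, 1 array per point and the 6 h point in blue. The 4 are the next by ratio among 1.5-fold dips with a difference of at least 200 units to both neighbours. Aqp4, Rfx4, Gpm6b and Cdo1 have 1 low array, while Tnn is also low at 24 and 48 h and RT1-T24-4 is as low at 0, 48 and 72 h.

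Further dips in genes known from glia and neural progenitors were named after their values were seen. Ttyh1, a chloride channel family member, read 1743, 937 and 1442 and 1246, 819 and 1260.3 in its 2 dipping probe sets. Ntrk2, the BDNF receptor, dipped in a dimmer probe set, with 867, 457 and 800.2, while its brightest did not dip. Cdh2, N-cadherin, dipped in 2 probe sets, with 648, 281 and 487 and 524, 276 and 464. Ptprz1, a receptor phosphatase of glial precursors, dipped in 1 probe set, with 317, 186 and 297, but a brighter one read 734, 755 and 823. Sox2, the progenitor transcription factor, likewise dipped in a dim probe set, with 321, 203 and 406, while its brightest read 1513, 1286 and 1819.

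Of the developmental regulators on the lists, Hey2, a Notch effector, read 1135, 716 and 1081, and Nog, the BMP antagonist noggin, 282, 166 and 265, and both dipped. Id2 peaked in the same list as Hey2, and the median of the 12 Notch and helix-loop-helix genes was 0.03.

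Genes of mitosis and DNA replication lay low at 6 h as a group. Of 23 genes of G2 and mitosis 12 were below both neighbours and none above both, with a median of -0.20, and of 21 replication genes 10 were below and 1 above, with a median of -0.17. Ccna2, cyclin A2, dipped with 888, 781, 386, 586, 304, 143 and 98.4 over the 7 times, and Cenpf, a kinetochore protein, with 467, 370.0, 229.5, 391, 290.2, 216 and 111. Top2a, a topoisomerase, dipped in a dimmer probe set only. Ccna2 and Cenpf were lower still at 48 and 72 h, and their 12 h values interrupted a decline. With 24 h in place of 12 h the medians of the mitosis and replication lists were -0.01 and -0.03. A low level at 6 h was not particular to these lists. Of 23 splicing and RNA-binding regulators 12 lay below both neighbours and 3 above, with a median of -0.15. Of 16 fibroblast and meningeal markers 9 lay below and 4 above, with a median of -0.17.

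Of the 12 channel and receptor genes past the filter Cacna1b, an N-type calcium channel, peaked with 98.1, 147 and 69.3, and Gabrb1 and Gria3, subunits of GABA and AMPA receptors, dipped with 281, 187 and 393 and 179, 82.7 and 129. Of 25 neuronal markers 2 lay above both neighbours and 3 below, and Elavl3, a neuronal RNA-binding protein, peaked with 617, 226, 374, 145, 300.1, 246 and 279. The median of these markers was 0.19 against 2 and 12 h but -0.38 with 0 h in place of 2 h. Skeletal muscle markers did likewise, with a median of 0.38, or -0.62 with 0 h in place of 2 h, and Myod1, the muscle regulator, peaked with 594, 157, 281, 115, 127, 313 and 77.2. For both Elavl3 and Myod1 the 0 h signal was well above that at 6 h, so neither was highest at 6 h.

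Lists without a called gene by their brightest probe sets included the heat shock response (14 genes, median -0.08), the stress response of the endoplasmic reticulum (26 genes, 0.05), NRF2 targets (17 genes, 0.14), YAP and SRF targets (17 genes, 0.02), matrix genes (30 genes, -0.07) and apoptosis genes (27 genes, -0.01). Among these, Hmox1, the heme oxygenase, read 6491, 11387 and 12227 and Srxn1, sulfiredoxin, 3184, 5073 and 3937, so Hmox1 went on rising past 6 h. All 12 ribosomal protein genes past the filter lay above both neighbours, by a median of 0.16, which became 0.03 after quantile normalization.

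For genes with more than 1 probe set past the filter, the other probe sets were read on the same arrays. The 42 peaking genes of this kind had 65 other probe sets. Of these 45 (69.2%) also lay above the mean of the neighbours, where 46.3% of all probe sets did. The rule was met by 8 of them (12.3%), against 0.896% of all, and these are among the peaks already counted. The 86 dipping genes had 125 other probe sets, of which 100 (80%) lay below the mean, against 53.7% of all. The rule was met by 11 of them (8.8%), against 1.65% of all. Such probe sets share the RNA and the array, so they are no replicates of the time point. They cannot show whether the 6 h array or its RNA was unusual.

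The rule cut a continuous range. Just inside it were Dtnb, with 365 at 6 h and 1.503 times its nearer neighbour, and Cdh13, a dip with 1.501. Just outside it lay Bdkrb2 with 1.499, whose 6 h signal was 255, and the dip of the brain metallothionein Mt3 with 1.4996, from 2369.6 at 2 h to 1580.2 at 6 h and 2549.97 at 12 h.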

How the data were processed

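RNA combined from 5 animals was hybridised to 1 Affymetrix Rat Genome 230 2.0 array at each of 7 times. The authors processed the scans in GCOS with the MAS5 algorithm and deposited 1 signal intensity per probe set, on a linear scale with background subtracted and every array scaled to a trimmed mean of 500. Low signals are the least reliable under this subtraction, hence the filter at a mean of 100. From these intensities the ratios of the 6 h signal to both neighbours were computed in Python 3.11.15 with pandas 2.3.3 and numpy 2.4.6. The code was first run on simulated data, with planted differences larger than the median peak or dip and in brighter probe sets. That run does not cover dim calls near 1.5-fold. Probe sets were named from the platform annotation: 20826 had 1 symbol, 436 several and 9780 none, and a gene was represented in the lists by its brightest probe set. Promoters came from RefSeq (GRCr8). The genes described first are the 12 with the largest smaller ratio in each direction, strict calls before 1.5-fold calls with a difference of 200, and then up to 4 called genes of each of 40 lists. Pde4b was described outside this rule. The members and lists were chosen with earlier results of these data known. Alternatives were other scalings, filters, a pseudocount of 32, a 2-fold rule and other neighbouring arrays. With 1 array per time no error could be computed.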

Additional observations from a re-analysis of the deposited data

How the results depend on the processing

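Median scaling left 187 peaks and 258 dips (all 156 main peaks and 254 main dips among them), quantile normalization 189 and 253 (151 and 238 shared), and 14 and 7 strict calls under either. Counts followed the treatment of low signals. With log2(signal + 32), 95 probe sets peaked and 167 dipped, with a mean of at least 50, 405 and 560, of at least 200, 70 and 166, and with no filter, 2728 and 1950. A 2-fold rule kept 22 peaks and 36 dips. With 0 h in place of 2 h the calls were 197 and 426 (90 and 214 shared), the strict calls 23 and 7 (12 and 4 shared) and the astrocyte and radial glial median -0.54 in place of -0.40. With 24 h in place of 12 h they were 174 and 300 (99 and 178 shared), and the strict calls 13 and 12 (10 and 6 shared). All 24 genes named by size still met the 1.5-fold rule under both scalings and the pseudocount, and 22 did under either change of neighbour. The strict calls were kept less often, as their counts above show. The 1.5-fold rule was missed with 0 h in place by RT1-T24-4 and Calb1, and with 24 h in place by RT1-T24-4 and Tnn. No paired analysis was possible because each time has 1 array, and single arrays cannot show how far 6 h differed by chance of culture, labelling or hybridisation.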

Other observations

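Genes of metabolism and of the neural tube outside the lists also dipped at 6 h. Chdh, choline dehydrogenase, read 274, 113 and 346 at 2, 6 and 12 h, and Slc6a13, a GABA transporter, read 364, 136 and 326. Cyp26b1, which degrades retinoic acid, read 1119.95, 501 and 911, and its 72 h signal of 2354 was the highest of the 7 arrays. Msx1, a homeobox factor of the dorsal neural tube, read 541, 293 and 679. These genes were chosen after their values were seen.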
